A study of Mus musculus with 4 samples.

Results

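The genes described here are 10 members of the insulin-like growth factor (IGF) system and of the hepatic response to growth hormone, namely Igf1, Igfals, Igfbp1, Igfbp2, Igfbp3, Igfbp4, Ghr, Socs2, Cish and Stat5b. They were taken by name: each probe set whose single gene symbol was 1 of the 10 was used, and the probe sets of a gene were averaged. All 10 were measured, by 21 probe sets, among 10923 genes in all. Expression was measured on 4 arrays of regenerating liver, and the labels give male mice of the strain C57BL6/J, 6 to 13 weeks of age. The 2 siOrm arrays came from mice injected once with siRNA against Orm1, the acute phase protein orosomucoid, in the lipid carrier Invivofectamine 3.0, and the 2 siControl arrays from mice given control siRNA. In both groups 40% of the liver was removed 3 days after the siRNA, and the remnant was taken 48 hours after this partial hepatectomy, so no array shows an unoperated liver. The series text gives the carrier and the operation once, for the series as a whole. Whether 1 mouse or several gave the RNA of an array is not in the labels. The siOrm titles carry the numbers 1 and 2, which were read as replicate numbers because source name and description are the same for both, though they also match the gene names Orm1 and Orm2.

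Growth hormone, released by the pituitary in pulses in male mice, binds the receptor encoded by Ghr on hepatocytes, and the receptor-bound kinase JAK2 then phosphorylates STAT5B. STAT5B enters the nucleus and drives Igf1 and Igfals, which encode circulating IGF-I and the acid-labile subunit, as well as Socs2 and Cish, whose products damp the same receptor. In blood most IGF-I travels in a complex with IGFBP3 and the acid-labile subunit, while IGFBP1, IGFBP2 and IGFBP4 form smaller complexes. Liver Igfbp1 is repressed by insulin through FOXO1 and is known to be induced soon after hepatectomy.

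Promoters from RefSeq on the GRCm38.p6 build, running from 250 bases before to 50 after a start site, were found for 9 of the 10 members, as 14 sequences, with none for Socs2. They were searched for TTCNNNGAA, the palindromic STAT motif, and for CAAAACA, the core of the insulin response element, with TGTTTTG as its other strand; the letters of these motifs do not overlap. The STAT motif was held by 3 member promoters, 1 of Cish and 2 of the 3 listed for Igfals, and by 8.3% of all 32851 promoters. The insulin response core was held by 1 of the 14 member promoters, that of Igfbp1, and by 6.28% of all promoters. The 3 sequences below are shown because Cish, Igfals and Igfbp1 are the members in which a motif was found, and not for their differences. All lie on the plus strand and capitals mark the motif. In Cish the matches covered bases 1 to 9 and 12 to 20 counted from the start site as 1, in the second Igfals promoter bases -58 to -50, and in Igfbp1 bases -108 to -102. A match is a run of letters and was not tested as a binding site.
Cish, chr9:107296409-107296708: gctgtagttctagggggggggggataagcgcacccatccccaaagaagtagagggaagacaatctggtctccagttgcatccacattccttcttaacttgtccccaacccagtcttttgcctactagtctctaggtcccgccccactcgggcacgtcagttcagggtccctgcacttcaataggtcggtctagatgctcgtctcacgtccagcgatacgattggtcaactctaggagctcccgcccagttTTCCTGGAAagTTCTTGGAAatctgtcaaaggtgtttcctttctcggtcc
Igfals, chr17:24877981-24878280: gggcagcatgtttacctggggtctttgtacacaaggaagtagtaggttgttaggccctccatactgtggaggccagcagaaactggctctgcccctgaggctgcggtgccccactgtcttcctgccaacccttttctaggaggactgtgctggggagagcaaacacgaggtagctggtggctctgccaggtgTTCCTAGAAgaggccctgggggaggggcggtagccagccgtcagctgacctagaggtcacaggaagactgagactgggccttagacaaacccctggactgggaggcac
Igfbp1, chr11:7197537-7197836: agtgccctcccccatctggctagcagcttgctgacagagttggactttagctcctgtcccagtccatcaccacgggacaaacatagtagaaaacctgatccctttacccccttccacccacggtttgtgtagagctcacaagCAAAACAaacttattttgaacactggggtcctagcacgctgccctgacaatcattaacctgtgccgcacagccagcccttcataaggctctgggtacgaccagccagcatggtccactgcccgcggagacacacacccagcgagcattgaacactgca

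All values are log2 signals, with base 2 assumed, from which the authors had removed each probe set's median over the 4 arrays. A value of 0 is therefore the middle of the 4 arrays and not an expression level, and for a gene with 1 probe set the 2 middle arrays lie equally far above and below 0. Levels of different genes, and whether the markers of liver were high, cannot be read from such a table. Differences are siOrm minus siControl with standard error (SE), tested two-sided with limma over all genes and Benjamini-Hochberg adjustment, and a gene is called at an adjusted p under 0.05. As the arrays may not be separate animals, a p-value here covers array-to-array spread alone, part of which can be technical.

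The siRNA target itself differed little. Orm1 stood at -0.24 and -0.02 in the siOrm arrays, against 0.02 and 0.19 in the siControl arrays, a difference of -0.23 (SE 0.15, limma adjusted p = 0.994). Its close paralogs Orm2 and Orm3 differed by -1.08 (SE 0.34) and -0.91 (SE 0.34), also without passing. The 4 arrays were unequally alike, with an SD over genes of the array-to-array difference of 0.249 for the siOrm pair and 0.384 for the siControl pair. Over the 10 members these SDs were 0.373 for the siOrm pair and 0.834 for the siControl pair. Over all genes the smallest SD of any pair was 0.233, between siOrm replicate 2 and siControl replicate 1, which are of opposite groups. The largest was 0.428, between siOrm replicate 1 and siControl replicate 2.

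Among the 10 genes, those of the growth hormone receptor and of the acid-labile subunit stood higher in both siOrm livers, Igfbp1 stood lower in both, and the feedback genes Socs2 and Cish varied more within the siControl group than between groups. By limma, 0 of the 10 members were called, as were 0 of 10923 genes (0% called). At an unadjusted p under 0.05 there were 2 members beside 520 genes (4.76%): Igfals higher, where 2.18% of genes were, and Igfbp1 lower, where 2.58% were. This count was 1 without siOrm replicate 1, where 1.09% of all genes reached such a p, 1 without siOrm replicate 2, where 3.86% did, and 7 without siControl replicate 1, where 16.2% did. The siOrm pair stood above the siControl pair, with no overlap, for 4 members, Ghr, Igfals, Igfbp3 and Stat5b, against 17.0% of all genes, or for 8 members without siControl replicate 1, against 44.6% of all genes. It stood below for 1 member, Igfbp1, against 15.3% of all genes, or for 5 members without siControl replicate 2, against 36.8% of all genes. The median difference of the members was 0.20, beside 0.0084 for all genes. It was -0.0024 without siControl replicate 2 and 0.43 without siControl replicate 1. A variance prior that follows the mean called 11 genes, none of them a member. In these centred values that mean is no signal level, so the prior does not follow intensity.

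**Figure D1:**
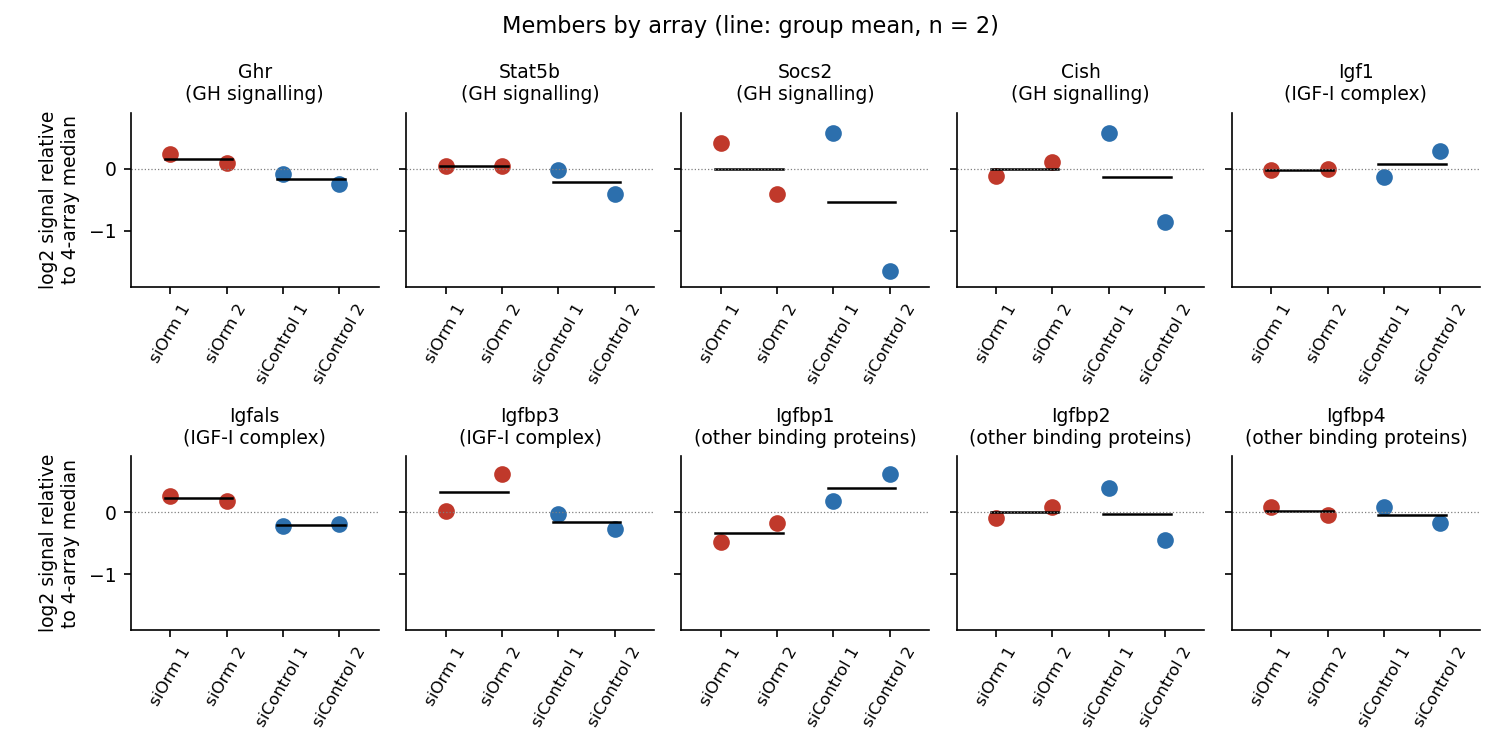
Log2 signal relative to the 4-array median (y axis) of each member in the 2 siOrm and 2 siControl arrays (points, x axis), with lines at the group means (n = 2 each). Igfals, Ghr, Igfbp3 and Stat5b separate the groups upwards and Igfbp1 downwards. Socs2 and Cish reach their lowest values, -1.65 and -0.86, in siControl replicate 2.

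Ghr, the receptor through which the liver senses growth hormone, stood at 0.24 and 0.09 in the siOrm arrays, against -0.09 and -0.25 in the siControl arrays. The groups did not overlap, and the gap between them was of about the size of the gaps within them. The difference was 0.34 (SE 0.14), a ratio of 1.26, with a 95% interval of -0.01 to 0.68, and was not called (limma adjusted p = 0.994). Its 3 probe sets gave nearly the same difference, at 0.32, 0.36 and 0.33. With any 1 array left out the difference lay between 0.26 and 0.41. Since the arrays measure whole liver, fewer cells of a type and less RNA per cell cannot be told apart.

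Stat5b, the transcription factor downstream of the receptor, stood at 0.05 and 0.04 in the siOrm arrays, against -0.02 and -0.41 in the siControl arrays. Its position rested on siControl replicate 2, the 1 array that lay well apart. The difference was 0.26 (SE 0.17, limma adjusted p = 0.994), and it was 0.07 without siControl replicate 2 and 0.46 without siControl replicate 1. In both of its probe sets siControl replicate 2 was the lowest array, at -0.39 and -0.44. In the first the groups overlapped, with 0.02 and -0.02 in siOrm and 0.04 in siControl replicate 1 (difference 0.18). Only in the second did they not overlap (difference 0.35).

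Socs2, whose product marks the receptor for degradation, stood at 0.41 and -0.41 in the siOrm arrays, against 0.58 and -1.65 in the siControl arrays. The groups overlapped, and the lowest and the highest value were both siControl. In both probe sets siControl replicate 2 was the lowest array, at -1.83 and -1.47. The siControl arrays thus lay 2.23 apart, a gap reached by 0.165% of genes, and the siOrm arrays 0.82 apart, a gap reached by 0.989% of genes. The difference between groups was 0.53 (SE 0.72, limma adjusted p = 0.999) and turned to -0.58 without siControl replicate 2.

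Cish, which encodes the inhibitor CIS, stood at -0.11 and 0.11 in the siOrm arrays, against 0.58 and -0.86 in the siControl arrays. As for Socs2, siControl replicate 1 was the highest array and siControl replicate 2 the lowest, with the siOrm arrays between them. The siControl gap was 1.44, reached by 0.742% of genes, while the siOrm gap was 0.23. The difference was 0.14 (SE 0.45, limma adjusted p = 0.999) and turned to -0.58 without siControl replicate 2, so for both feedback genes the direction depended on that array. Socs3, an inhibitor better known from cytokine signalling and named here after its values were seen, stood at -0.04 and 0.05 in siOrm, against 0.04 and -1.32 in siControl. Socs1 stood at 0.13 and -0.09 in siOrm, against 0.09 and -0.14 in siControl.

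**Figure D2:**
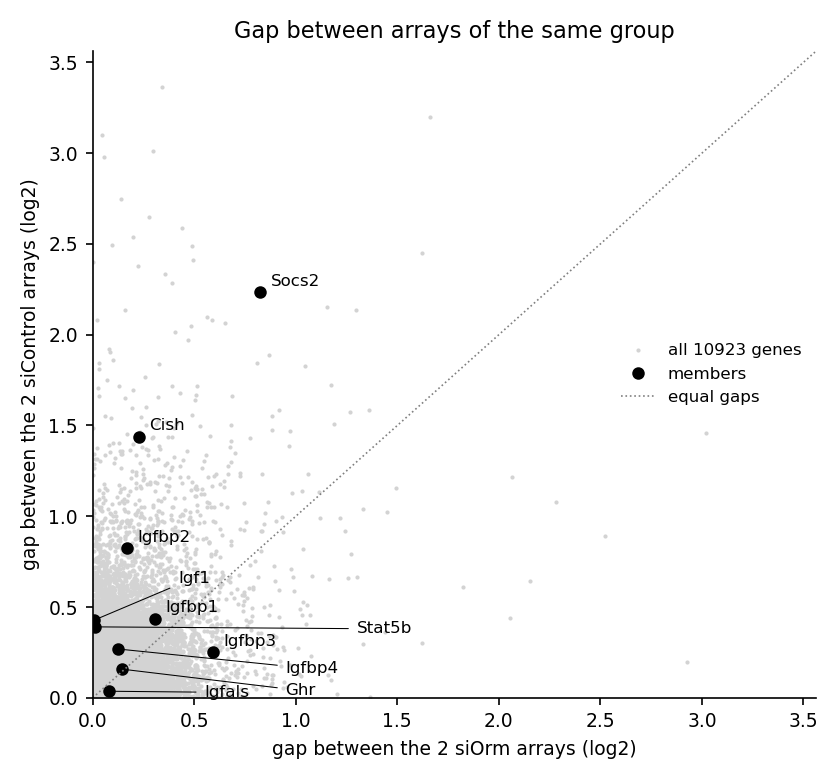
Gap between the 2 siOrm arrays (x axis, log2) and between the 2 siControl arrays (y axis, log2) for all 10923 genes (grey) and the 10 members (black, named), with a dotted line where both gaps are equal. Socs2 at 2.23 and Cish at 1.44 lie far up the siControl axis, and Igfals, with gaps of 0.08 and 0.04, lies near the origin.

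Other features of siControl replicate 2 moved with these values. Of the 10 members 7 were lowest in that array, beside 38.8% of all genes. Of 13 macrophage markers measured, 12 were highest there, beside 28.1% of all genes. The macrophage marker mean was -0.02 and -0.09 in the siOrm arrays, against -0.28 in siControl replicate 1 and 0.70 in siControl replicate 2. The neutrophil marker mean was -0.09 and -0.07 in the siOrm arrays, against 0.12 in siControl replicate 1 and 0.52 in siControl replicate 2. Of its 11 markers 5 were highest in siControl replicate 2 and 3 were lowest there. The largest values there were those of S100a8, S100a9 and Lcn2, at 2.75, 1.95 and 1.26. The neutrophil marker median was 0.10 in siControl replicate 1 and 0.08 in siControl replicate 2, so the higher mean was not shared by the list. Stellate and endothelial marker means were also highest in siControl replicate 2, at 0.35 and 0.24. Of 7 T and NK cell markers 6 were lowest there. Of 11 hepatocyte markers 8 were lowest there, by little, with a mean of 0.03 in each siOrm array, against 0.03 and -0.07 in the siControl arrays. The part of these shifts in the member values was not tested.

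Igf1, the hormone of the axis, stood at -0.02 and -0.01 in the siOrm arrays, against -0.13 and 0.29 in the siControl arrays. The siOrm arrays lay inside the siControl range, only 0.01 apart, and the difference was -0.09 (SE 0.18, 95% interval -0.54 to 0.35, limma adjusted p = 0.999). It turned to 0.12 without siControl replicate 2. Its 3 probe sets disagreed: the first differed by -0.38, with 0.72 in siControl replicate 2, the second by 0.15 and the third by -0.04. Which transcripts each probe set reads is not given in the sources used here.

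For Igfals the arrays of each group lay close together and the groups apart. The gene of the acid-labile subunit, made almost wholly by hepatocytes, stood at 0.27 and 0.19 in the siOrm arrays, against -0.22 and -0.19 in the siControl arrays. The gap between groups was several times that within either. The difference was 0.43 (SE 0.13), a ratio of 1.35, with a 95% interval from 0.12 to 0.75, at an unadjusted p of 0.0161, and 1.33% of all genes had a p as small. It did not pass over all genes (limma adjusted p = 0.994). With any 1 array left out it lay between 0.39 and 0.47. Igfals was read by 1 probe set, and it is the member whose promoter is printed above with the motif at bases -58 to -50.

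Igfbp3, the main carrier of IGF-I and in rat liver a product of non-parenchymal cells, stood at 0.03 and 0.62 in the siOrm arrays, against -0.03 and -0.28 in the siControl arrays. Only siOrm replicate 2 stood clearly high, and siOrm replicate 1 lay close to siControl replicate 1. The difference was 0.47 (SE 0.23, limma adjusted p = 0.994), 0.18 without siOrm replicate 2 and 0.77 without siOrm replicate 1. The siOrm gap of 0.59 was reached by 2.6% of genes. Igfbp3 too was read by 1 probe set. Stellate marker means were -0.07 and 0.09 in the siOrm arrays, against -0.19 and 0.35 in the siControl arrays. In siControl replicate 2, the lowest array for Igfbp3, stellate, macrophage and endothelial marker means were each at their highest, at 0.35, 0.70 and 0.24. Whether cell types bear on the Igfbp3 values was not tested.

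**Figure D3:**
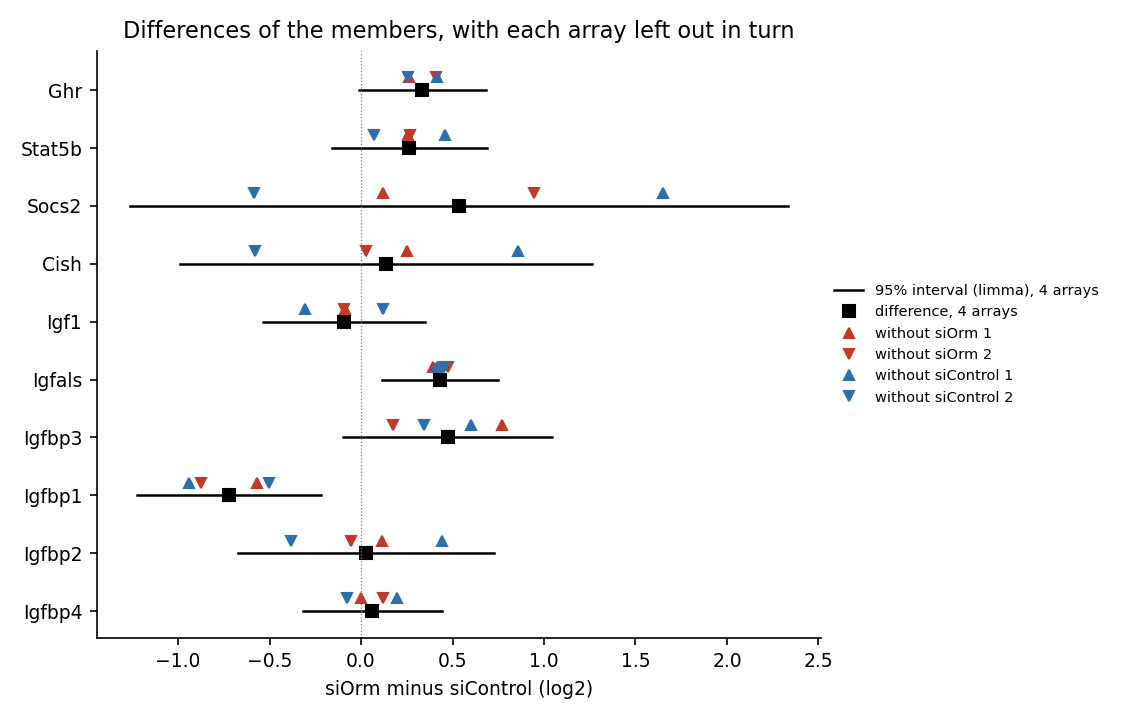
Difference siOrm minus siControl (x axis, log2) of each member, as a square with its 95% limma interval over 4 arrays, and with each array left out in turn (triangles). Igfals, Ghr, Igfbp3, Stat5b and Igfbp1 keep their side of 0 in each of these settings, as they must, since their groups do not overlap. Socs2 and Cish, whose groups overlap, turn to -0.58 without siControl replicate 2.

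Igfbp1, the insulin-repressed binding protein, was read by 1 probe set and had the largest difference of the 10. It stood at -0.48 and -0.17 in the siOrm arrays, against 0.17 and 0.61 in the siControl arrays. The groups did not overlap, though the nearest arrays of the 2 groups, siOrm replicate 2 and siControl replicate 1, lay closer to each other than the siControl arrays did. The difference was -0.72 (SE 0.20), a siOrm signal 0.607 times that of siControl, with a 95% interval from -1.22 to -0.22 and an unadjusted p of 0.0133, which 1.14% of genes reached. It did not pass over all genes (limma adjusted p = 0.994). With any 1 array left out it lay between -0.94 and -0.50.

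Igfbp2, abundant in fetal liver, stood at -0.08 and 0.08 in the siOrm arrays, against 0.38 and -0.44 in the siControl arrays. Its array order matched that of Cish, and its siControl gap of 0.83 was reached by 4.2% of genes. The difference of 0.03 (SE 0.28, 95% interval -0.67 to 0.73, limma adjusted p = 0.999) had no stable sign, at -0.38 without siControl replicate 2 and 0.44 without siControl replicate 1. Igfbp4, a binding protein that inhibits IGF action, stood at 0.08 and -0.05 in the siOrm arrays, against 0.09 and -0.18 in the siControl arrays. Its 6 probe sets differed by between -0.02 and 0.12, and siControl replicate 2 was the lowest array in each. The mean difference was 0.06 (SE 0.15, limma adjusted p = 0.999), or -0.07 without siControl replicate 2.

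**Figure D4:**
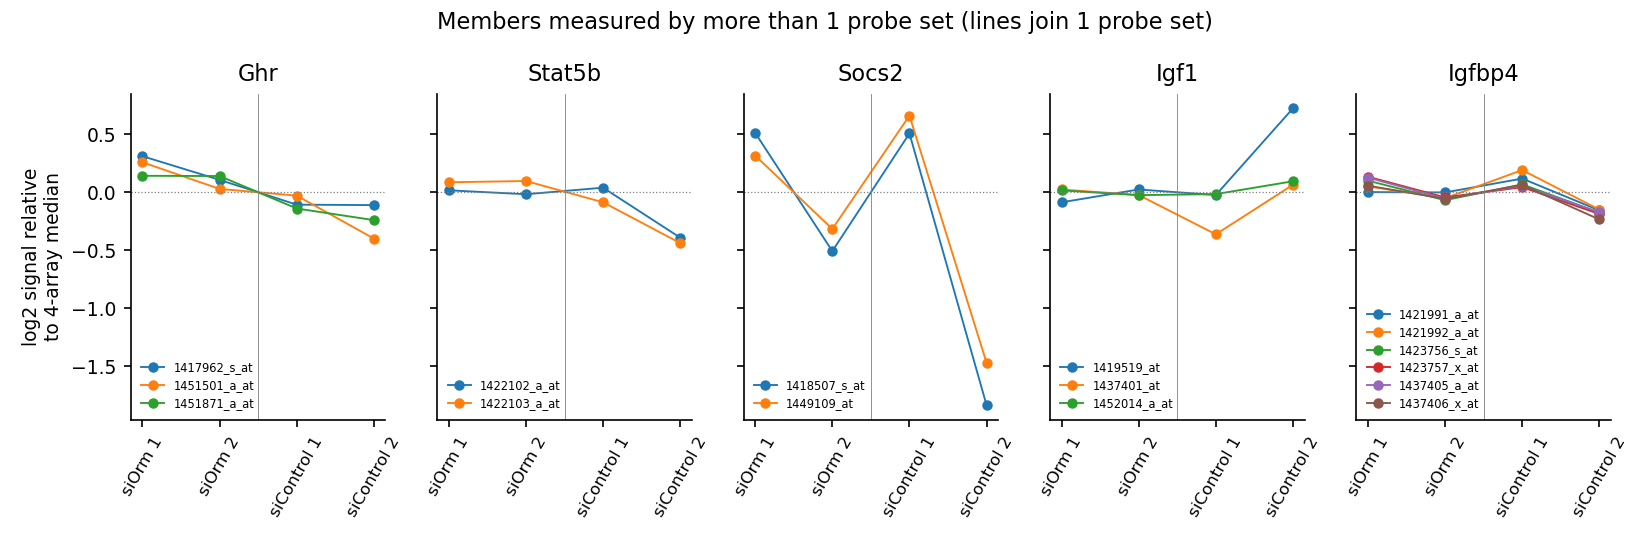
Log2 signal relative to the 4-array median (y axis) in the 4 arrays (x axis) for the 5 members read by more than 1 probe set, each line being 1 probe set. The 3 Ghr and 2 Socs2 probe sets run nearly together, whereas 1 of the 3 Igf1 probe sets reaches 0.72 in siControl replicate 2 and another lies at -0.36 in siControl replicate 1.

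For the 3 members with the largest differences, the genes with the nearest pattern were found by the root mean square distance over the 4 arrays after centring each gene on its mean. With 4 arrays, such likeness is a description only. Values were not scaled, so a gene that varies more over the arrays tends to lie further from others. Nearest to Igfbp1 were Gmppb, an enzyme of GDP-mannose supply, at a distance of 0.03, with -0.49 and -0.19 in siOrm against 0.19 and 0.67 in siControl, and Nhsl1 at 0.03. Nearest to Igfbp3 were Mgp, the matrix Gla protein, at 0.08 and Slc17a1, a phosphate transporter of the liver and kidney, at 0.09. Socs2 had no close neighbour: Rnf186, a ubiquitin ligase, was nearest at 0.30, followed by Cnmd at 0.32. Of pairs of members picked by name, Socs2 lay 0.51 from Cish and Ghr lay 0.09 from Igfals. These distances are not comparable as likeness, since Socs2 and Cish varied far more than Ghr and Igfals.

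The rest of the IGF system was described from a list. Of 15 further ligands, binding proteins, receptors and proteases listed, 13 were measured. An unadjusted p under 0.05 was reached by 0 of them, beside 4.76% of all genes. The differences of the 13 ran from -0.25 to 0.17 with a median of -0.025. Separated upwards was 1 (7.69%, beside 17.0% of all genes) and downwards 1 (7.69%, beside 15.3%). Igf2r, which clears IGF-II, stood at -0.05 and 0.05 in siOrm, against -0.07 and 0.57 in siControl. Igf1r, the IGF-I receptor, stood at 0.07 and -0.004 in siOrm, against 0.02 and -0.22 in siControl. Pappa, a protease that cuts IGFBP4, differed by 0.17 (SE 0.13), and Igf2bp3, an RNA-binding protein of fetal tissue, by -0.22 (SE 0.15).

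Genes that carry or damp the receptor signal showed no common direction. Of 25 listed, 23 were measured, with 0 at an unadjusted p under 0.05, beside 4.76% of all genes. Separated upwards were 2 (8.7%, beside 17.0% of all genes) and downwards 5 (21.7%, beside 15.3%). The median difference was -0.035. Ptpn1, a phosphatase of JAK2 and the insulin receptor, stood at -0.40 and -0.07 in siOrm, against 0.09 and 0.28 in siControl (difference -0.42, SE 0.17). Jak1, a kinase of cytokine receptors, differed by -0.56 (SE 0.24) and stood at 0.73 in siControl replicate 2. Ptpn11, which encodes SHP2, differed by -0.30 (SE 0.17), and Ptpn6, its haematopoietic relative SHP1, by 0.24 (SE 0.15). Jak2 itself stood at -0.08 and 0.01 in siOrm, against 0.20 and -0.12 in siControl, and Stat5a differed by -0.03; both are named as partners of the members and after their values were seen.

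In insulin and IGF receptor signalling, 18 of 23 listed genes were measured, with a median difference of 0.059. Separated upwards were 5 (27.8%, beside 17.0% of all genes) and downwards 0 (beside 15.3%). Trib3, an inhibitor of AKT, was the 1 gene with an unadjusted p under 0.05, beside 4.76% of all genes. It stood at 0.69 and 0.15 in siOrm, against -0.15 and -0.71 in siControl (difference 0.84, SE 0.26, limma adjusted p = 0.994). Irs1, the insulin receptor substrate, differed by 0.39 (SE 0.16), and the FOXO factors Foxo3 and Foxo1 by 0.24 (SE 0.13) and 0.26 (SE 0.14). Of the 18 genes, 12 were lowest in siControl replicate 2 (66.7%, beside 38.8% of all genes).

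Sex-biased liver genes, which follow the temporal pattern of growth hormone through STAT5B, were described as a further readout. Of 29 male-biased genes 21 were measured, and 3 had an unadjusted p under 0.05, beside 4.76% of all genes. Separated upwards were 7 (33.3%, beside 17.0% of all genes) and downwards 1 (4.76%, beside 15.3%). The difference was above 0 for 11 genes and below 0 for 10, with a median of 0.014. Elovl3, a fatty acid elongase, stood at 1.15 and 0.46 in siOrm, against -0.46 and -0.51 in siControl (difference 1.29, SE 0.24, limma adjusted p = 0.874). Hsd3b5, a steroid reductase of male liver, differed by 0.79 (SE 0.30) and was lowest in siControl replicate 2. Slco1a1, an organic anion transporter, stood at 0.15 and 0.16 in siOrm, against -0.09 and -1.11 in siControl. Of the 21 male-biased genes 8 were lowest in siControl replicate 2 (38.1%, beside 38.8% of all genes) and 7 were highest there. Ugt2b1, a glucuronosyltransferase, differed by 0.45 (SE 0.13). Ugt2b38, the 1 male-biased gene separated downwards, stood at -1.45 and -0.002 in siOrm, against 0.002 and 1.03 in siControl (difference -1.24, SE 0.55).

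Of 36 female-biased genes 20 were measured, and 6 had an unadjusted p under 0.05, beside 4.76% of all genes. Separated upwards were 8 (40.0%, beside 17.0% of all genes) and downwards 1 (5.0%, beside 15.3%). The median difference of the list was 0.27, beside 0.0084 for all genes. Of the 20 genes 13 were highest in siOrm replicate 1, beside 2885 of all 10923 genes. Without that array the median was 0.14, and without siOrm replicate 2 it was 0.49. Cyp4a14 differed by 1.75 (SE 0.27, limma adjusted p = 0.857), Acot3 by 2.06 (SE 0.46) and Acot4 by 0.80 (SE 0.14); these 3 encode a fatty acid hydroxylase and acyl-CoA thioesterases and are also known targets of PPAR-alpha. Prom1, a membrane glycoprotein, went the other way at -0.996 (SE 0.33). With 0 genes called over all genes, none of the lists had a member past the test.

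**Figure D5:**
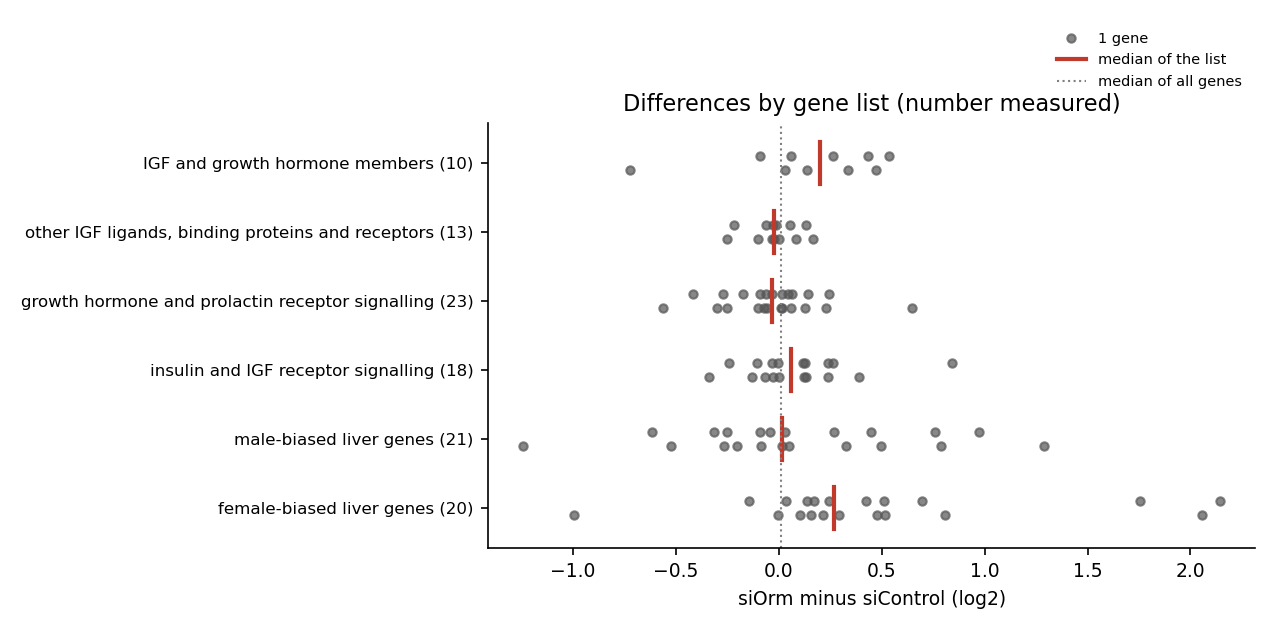
Differences siOrm minus siControl (x axis, log2) of each measured gene (points) by list, with the list median in red and the median of all genes dotted. The 10 members have a median of 0.20 and the female-biased list one of 0.27, while the other lists have medians between -0.035 and 0.059.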

How the data were processed

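Total RNA from 4 livers or pools was read on single-colour Affymetrix mouse arrays, as named in the series text. The labels' protocols describe another maker's labelling and RNA from cell culture, which contradicts the series text. The deposited table held 18852 probe sets as log2 signal minus the median of the 4 arrays (largest row median 4.8e-07), made by the authors; software, normalization and filters are not stated. Base 2 was assumed; natural logarithms would make every difference 1.44 times larger. The signal over background cannot be seen, so no filter on dim probe sets was set, and the number of arrays limits the precision. Of the probe sets, 17209 had 1 gene symbol in the platform annotation, 564 had several, 1044 were unlisted and 35 were controls; the first gave 10923 genes as means of probe sets.

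Genes were tested with limma 3.58.1 in R 4.3.3 (lmFit, eBayes, constant prior with 3.60 degrees of freedom beside 2 residual ones), after a check on simulated data. Alternatives were quantile normalization, array medians, 3 probe set rules, a trend prior, a replicate block and leaving out each array. Members, lists and tests were chosen with earlier results of these data known. Lists were written from general knowledge, and up to 4 genes with the smallest p of each were named. Ugt2b38 was added as the 1 male-biased gene separated downwards.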

Additional observations from a re-analysis of the deposited data

How the results depend on the processing

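Over 11 alternatives the 10 members gave 106 differences, of which 97 kept their sign and 9 turned it, and no member was called in any setting. Part of these signs could not turn, since the trend prior and the replicate block leave every difference as it was. For a member read by 1 probe set, the probe set rules that keep it also leave its difference as it was. When 1 array is left out, the sign of a member whose groups do not overlap cannot turn either. The count of kept signs is therefore no measure of stability. With 1 array left out, the differences that turned ran from -0.31 to 0.12 for Igf1, from -0.38 to 0.44 for Igfbp2, from -0.074 to 0.20 for Igfbp4, from -0.58 to 1.65 for Socs2 and from -0.58 to 0.86 for Cish. In each of these 5 the sign turned without siControl replicate 2. Igfbp2 turned also without siOrm replicate 2 (-0.056) and after quantile normalization (-0.047), and Igfbp4 without siOrm replicate 1 (-0.0015) and with the probe set of largest spread (-0.021); the cause was not tested. Calls over all genes numbered 11 with a trend prior and ranged from 0 to 229 when 1 array was left out. The 229 arose without siControl replicate 1, a fit in which the other siControl array has no partner and is assumed to vary like the siOrm arrays. Over the same fits, members with an unadjusted p below 0.05 ranged from 1 to 7, beside 1.09% to 16.2% of all genes, members separated upwards from 4 to 8 and downwards from 1 to 5, and the median difference from -0.0024 to 0.43. With 3 arrays separation is easier, at 31.6% of genes upwards and 36.8% downwards without siControl replicate 2. Without probe sets whose names end in _s_at, _x_at or _a_at, 4 members had no value, namely Igfbp2, Igfbp4, Ghr and Stat5b. The 2 members still separated upwards were Igfals and Igfbp3, each with its difference unchanged. The replicate block gave 0 calls and 2 members with an unadjusted p below 0.05; same-numbered arrays share only a number, and their deviations had a correlation of 0.13 over genes.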
